A study of Mus musculus with 8 samples.

Results

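The genes described are 39 components of the macroautophagy machinery, measured in neutrophils sorted from the spinal cord of mice. They were taken as a list of gene symbols covering every step from initiation to fusion. All 39 were among the 23369 genes of the deposited count table, and all 39 were among the 12610 genes that passed the filter on low counts and were tested.

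Macroautophagy is the process by which a cell wraps part of its own cytoplasm in a double membrane, the autophagosome, and delivers it to the lysosome for breakdown. A kinase complex starts the process, a lipid kinase complex marks the site, lipid transfer and scrambling proteins feed the growing membrane, and a pair of ubiquitin-like conjugation reactions fix the ATG8 proteins to it. Cargo receptors then tie what is to be degraded to ATG8, and SNARE proteins fuse the closed autophagosome with the lysosome. In neutrophils, autophagy is known for its part in granulocyte differentiation, in the supply of fuel from lipid droplets, and in degranulation.

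The mice were C57BL/6N with experimental autoimmune encephalomyelitis (EAE), an immune-mediated model of multiple sclerosis. Cells positive for CD45, CD11b and Ly6G were sorted, and their RNA was sequenced in 4 libraries from zeitgeber time 13 (ZT13), which under the usual light schedule is early in the dark phase, and in 4 libraries from zeitgeber time 1 (ZT1), early in the light phase. All 8 carry the same batch label, and all come from diseased mice, so that neither group is a healthy control. The sources used here give no age, sex, induction protocol or animal identifiers, and p-values therefore measure the spread between these samples.

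Library totals were 46152067 to 67873023 counts, and 3 counts corresponded to 0.0414 to 0.0674 CPM, the count scaled to a common library total; as the bound on a level read as 0, this covers counting error only. The lowest count of any of the 39 genes in any library was 149, so that depth did not limit their detection. Fewer genes had at least 1 count in ZT13 libraries (13945 to 15751) than in ZT1 libraries (15760 to 17701). All 14 neutrophil markers examined were in the table, with a summed level of 182406 to 231308 CPM at ZT13 and 139494 to 179030 CPM at ZT1, ranges that did not overlap. Microglia and macrophage markers summed to 658 to 1012 CPM at ZT13 and 794 to 1121 CPM at ZT1, and T and NK cell markers to 1.93 to 8.98 CPM at ZT13 and 1.44 to 5.26 CPM at ZT1, with Klrb1c at 0 in every ZT1 library. Oligodendrocyte markers summed to 139 to 249 CPM at ZT13 and 141 to 203 CPM at ZT1. The part of these differences in the results below was not tested. In bulk samples, fewer cells of a type and less RNA per cell cannot be told apart.

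At the level of the whole machinery, no gene changed between ZT13 and ZT1 at the threshold used. With edgeR's quasi-likelihood test and Benjamini-Hochberg adjustment, 0 of 39 passed an adjusted p of 0.05, as did 0 of all 12610 genes (0%). At an unadjusted p under 0.05 there were 5 of 39 (12.8%), against 9.20% of all genes. Of these, 3 (Atg101, Ulk2 and Calcoco1; 7.69%) had higher values at ZT13, against 4.35% of all genes, and 2 (Atg2b and Atg16l2; 5.13%) had lower values, against 4.85%. The shares lay near those of the background. Adjusted p-values given for single genes are from the edgeR test unless DESeq2 is named. The count of autophagy genes at an unadjusted p under 0.05 was 3 without ZT1 replicate 2 or without ZT1 replicate 4. It was 8 without ZT1 replicate 3, where Gabarap, Gabarapl2 and Map1lc3a were added to the same 5 genes. The background moved the same way: 825 of 13047 genes tested without ZT1 replicate 2, 790 of 13087 without replicate 4 and 1502 of 13006 without replicate 3.

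Groups that did not overlap at all were seen for 1 gene with higher values at ZT13, Atg101 (2.56%, against 2.66% of all genes), and for 1 with lower values, Atg2b (2.56%, against 3.00%). DESeq2 called 0 of 39 at an adjusted p of 0.05, against 0.936% of all genes. Log2 fold changes of ZT13 over ZT1 were positive for 17 genes (43.6%, against 47.7% of all genes) and negative for 22, with a median of -0.01 and a range of -0.91 to 0.67; the median over all genes was -0.02. The 95% interval of the log2 fold change lay within a 2-fold change either way for 36 of the 39 genes and within a 1.5-fold change for 24. For 34 genes it included 0.

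**Figure D1:**
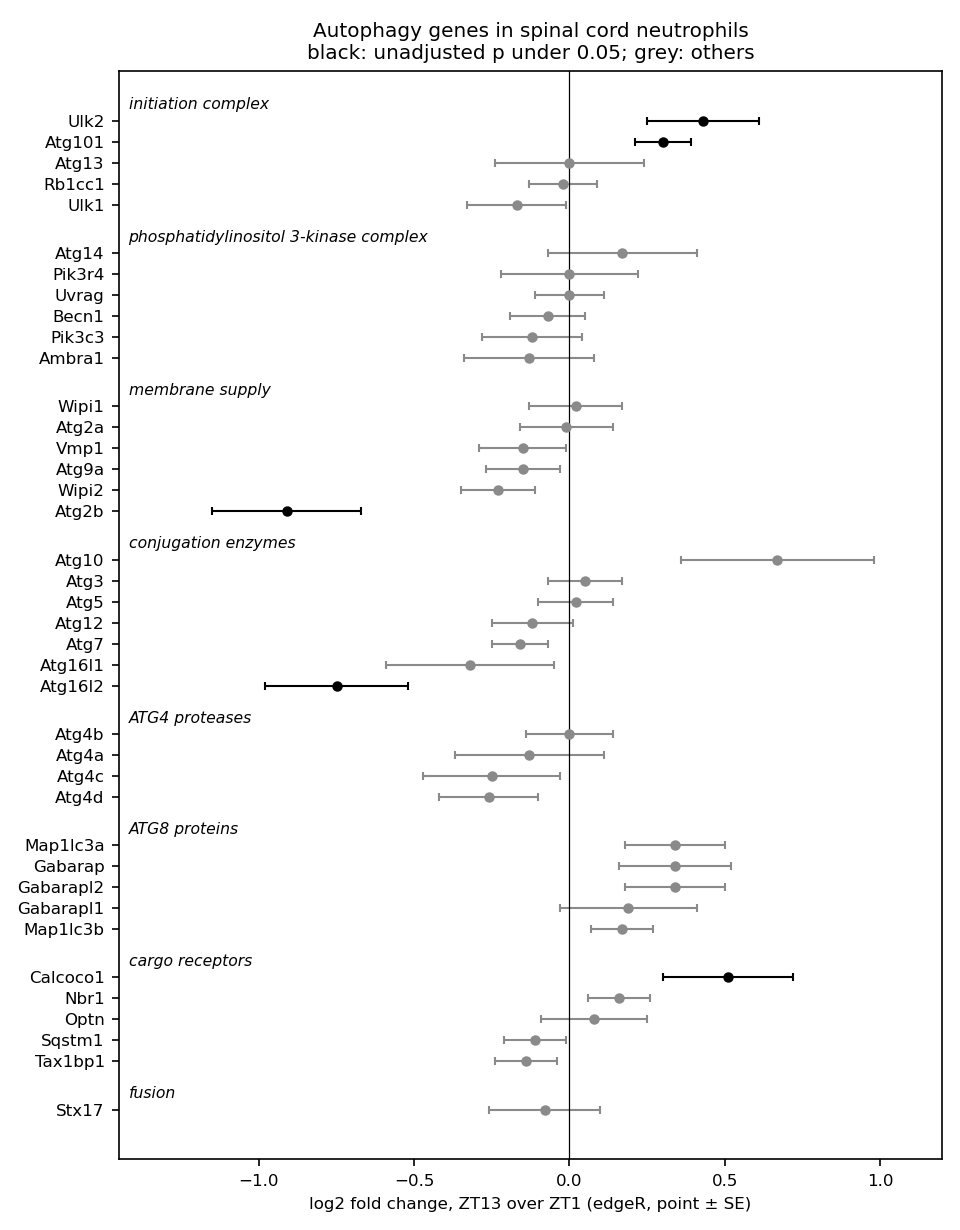
Log2 fold change of ZT13 over ZT1 for each of the 39 autophagy genes, by role from top to bottom in the order of the pathway; points are edgeR estimates, bars are standard errors, and black marks an unadjusted p under 0.05. The 5 ATG8 genes all lie to the right of 0 (0.17 to 0.34), while Atg2b at -0.91 lies farthest to the left.

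Levels between genes were compared as CPM per kilobase of merged annotated exons. Gabarap, an ATG8 protein of the GABARAP subfamily, was the most abundant with a mean of 232 CPM per kilobase over the 8 libraries. Sqstm1, which encodes the cargo receptor p62, followed at 117 and Atg3, the enzyme that loads ATG8 onto lipid, at 102. Atg101 stood at 85.5 and Map1lc3b, which encodes LC3B, at 54.5. At the lower end were Atg10 at 2.41, Pik3r4 at 1.93 and Atg2b at 0.895 CPM per kilobase. When the longest annotated transcript was used as the length, 9 of the 10 highest genes were shared.

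**Figure D2:**
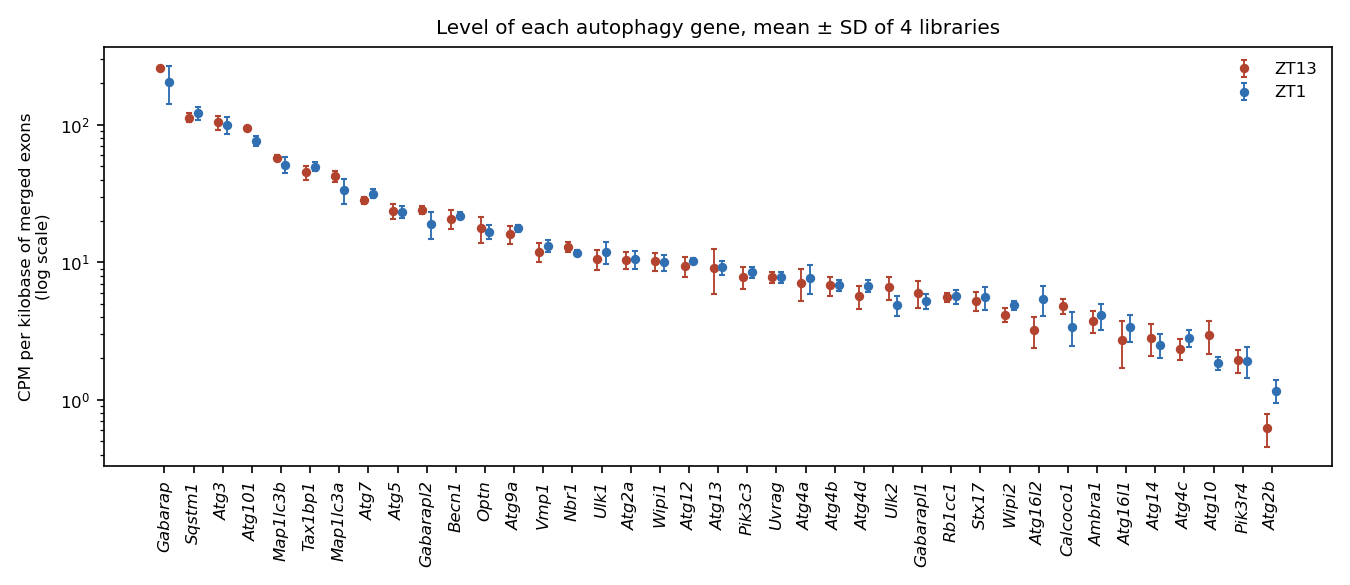
Mean level of each gene in CPM per kilobase of merged exons (log scale), with bars of 1 SD over 4 libraries, ZT13 in red on the left and ZT1 in blue on the right of each pair. Genes run from Gabarap at 232 CPM per kilobase to Atg2b at 0.895. The bars of ZT13 and ZT1 do not overlap for Atg2b, Atg10, Atg16l2 and Atg101.

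The median spread between libraries of the same time was smaller for these genes than for tested genes in their level range, though not for each of them. The SD of log2 CPM within groups had a median of 0.222 over the 39 genes, against 0.277 over the 8009 genes with levels in the same range. Only the range was matched, and not how the levels were distributed within it. For the 39 genes the SD also differed from gene to gene. It was lowest for Atg101 (0.0853) and highest for Atg16l1 (0.449).

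Initiation depends on the ULK kinase complex, in which ULK1 or ULK2 is the kinase, ATG13 and ATG101 form a stabilising pair and RB1CC1 (FIP200) is the scaffold. Of its 5 genes, 2 had an unadjusted p under 0.05 (40.0%, against 9.20% of all genes), both with higher values at ZT13. Atg101 (ENSMUSG00000037204, chr15:101284272-101290945, plus strand, GRCm38) had 148, 155, 147 and 152 CPM in ZT13 replicates 1 to 4, against 113, 122, 136 and 119 CPM in ZT1 replicates 1 to 4. Every ZT13 library lay above every ZT1 library, and the ZT13 values lay close together. The means were 151 ± 3.78 CPM at ZT13 and 123 ± 9.98 CPM at ZT1 (SD, n = 4 each), a log2 fold change of 0.30 ± 0.09 (SE; adjusted p = 0.434; DESeq2 adjusted p = 0.0848).

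Ulk2 (ENSMUSG00000004798, chr11:61775649-61855073, minus strand, GRCm38), the less studied kinase of the pair, had 32.1, 34.8, 42.2 and 48.6 CPM in the ZT13 libraries, against 24.1, 27.5, 35.9 and 29.5 CPM in the ZT1 libraries. The groups overlapped, since ZT1 replicate 3 lay above ZT13 replicates 1 and 2. The log2 fold change was 0.43 ± 0.18 (SE; adjusted p = 0.519). Its unadjusted p was no longer under 0.05 without ZT13 replicate 3 or 4 (log2 fold changes 0.39 and 0.31), or without ZT1 replicate 1, 2 or 4 (0.35, 0.40 and 0.43). Per length, Ulk2 made up 38.4 ± 3.65% of the summed Ulk1 and Ulk2 level at ZT13 and 29.3 ± 4.74% at ZT1 (SD, n = 4 each), with ZT1 replicate 3 inside the ZT13 range. Ulk1 itself had a log2 fold change of -0.17 ± 0.16, and those of Atg13 and Rb1cc1 were 0.00 ± 0.24 and -0.02 ± 0.11 (SE), with libraries of both times intermixed for each of the 3 genes.

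The phosphatidylinositol 3-kinase complex is built on the catalytic subunit PIK3C3 (VPS34) with PIK3R4 and beclin 1, joined by either ATG14 or UVRAG, and AMBRA1 regulates it. None of its 6 genes had an unadjusted p under 0.05, and their log2 fold changes lay between -0.13 and 0.17. Becn1, the most abundant of them, had 147, 124, 179 and 139 CPM at ZT13, against 153, 166, 143 and 157 CPM at ZT1. The ZT1 libraries all lay within the range of the ZT13 libraries (log2 fold change -0.07 ± 0.12, SE; adjusted p = 0.912). Of the 50-base runs in the annotated Becn1 exons, 36.8% also occur in another gene's transcripts, mainly those of Cntd1, so that part of its reads could not be assigned by sequence alone.

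Pik3c3 had 26.7, 41.0, 38.3 and 33.7 CPM at ZT13, against 42.2, 37.2, 33.6 and 38.96 CPM at ZT1. ZT13 replicate 1 was the lowest of the 8, and the other ZT13 libraries lay among the ZT1 libraries. Its log2 fold change of -0.12 ± 0.16 (SE; adjusted p = 0.881) was the one with the smallest p in the complex. Atg14, which directs the complex to autophagy, had 0.17 ± 0.24, Pik3r4 0.00 ± 0.22, Uvrag, which directs it to endosomes, 0.00 ± 0.11 and Ambra1 -0.13 ± 0.21 (log2 fold change ± SE).

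Among the genes for membrane supply, ATG2A and ATG2B transfer lipids, ATG9A and VMP1 are lipid scramblases, and WIPI1 and WIPI2 bind the lipid made by PIK3C3. Of these 6 genes 5 had negative log2 fold changes and 1, Atg2b, an unadjusted p under 0.05 (16.7%, against 9.20% of all genes). Atg2b (ENSMUSG00000041341, chr12:105616136-105685211, minus strand, GRCm38) had 10.03, 10.6, 6.65 and 6.24 CPM at ZT13, against 16.0, 12.03, 19.4 and 15.4 CPM at ZT1. Every ZT13 library lay below every ZT1 library. The means were 8.37 ± 2.24 CPM at ZT13 and 15.7 ± 3.04 CPM at ZT1 (SD, n = 4 each), and the log2 fold change of -0.91 ± 0.24 was the lowest of the 39 (SE; adjusted p = 0.403; DESeq2 adjusted p = 0.0663).

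Atg2a, the paralog that carries most of the ATG2 transcript, had a log2 fold change of -0.01 ± 0.15 (SE). As a share of the summed Atg2a and Atg2b level per length, Atg2b held 8.11, 6.83, 4.38 and 3.75% at ZT13, against 10.5, 9.65, 10.9 and 8.88% at ZT1. Every ZT13 share lay below every ZT1 share. Of the 6 paralog families examined, this was the only one whose shares did not overlap. With Atg2a at a log2 fold change of -0.01, the share follows the level of Atg2b itself and is not a separate result. Of the 50-base runs of Atg2b, 8.23% occur in another gene's transcripts, mainly those of the neighbouring Gskip.

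Atg9a, the most abundant of the membrane supply genes per length, had 87.6, 81.7, 113 and 86.0 CPM at ZT13, against 102, 101, 95.2 and 110 CPM at ZT1. Of the ZT13 libraries 3 lay below all ZT1 libraries and replicate 3 lay above them all. The log2 fold change was -0.15 ± 0.12 (SE; adjusted p = 0.783), and with single libraries left out it spanned -0.26 to -0.10. The lowest value, without ZT13 replicate 3, had an unadjusted p under 0.05 (adjusted p = 0.444), and the highest, without ZT13 replicate 2, did not (adjusted p = 0.875). Atg9a shares 30.5% of its 50-base runs with other annotated genes. Wipi2, which recruits ATG16L1, had a log2 fold change of -0.23 ± 0.12 (SE; adjusted p = 0.616), and with single libraries left out of -0.31 to -0.18, where the lowest, without ZT13 replicate 4, had an unadjusted p under 0.05 (adjusted p = 0.528). Vmp1 had -0.15 ± 0.14 and Wipi1 0.02 ± 0.15 (log2 fold change ± SE).

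In the conjugation reactions ATG7 acts as the activating enzyme, ATG10 joins ATG12 to ATG5 and ATG3 joins ATG8 to phosphatidylethanolamine, with ATG16L1 placing the ATG12-ATG5 conjugate on the membrane. The highest log2 fold change of the machinery, that of Atg10, was found among these 7 genes. An unadjusted p under 0.05 was found for 1 of them, Atg16l2 (14.3%, against 9.20% of all genes). Atg16l2 (ENSMUSG00000047767, chr7:101263034-101302251, minus strand, GRCm38), a paralog of Atg16l1, had 30.9, 35.0, 20.2 and 22.8 CPM at ZT13, against 44.3, 60.5, 33.4 and 45.0 CPM at ZT1. The ZT13 libraries were lower except that ZT13 replicate 2 lay above ZT1 replicate 3. The means were 27.2 ± 6.93 CPM at ZT13 and 45.8 ± 11.1 CPM at ZT1 (SD, n = 4 each), with a log2 fold change of -0.75 ± 0.23 (SE; adjusted p = 0.449; DESeq2 adjusted p = 0.0984).

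Atg16l1, the paralog required for canonical autophagy, had a log2 fold change of -0.32 ± 0.27 (SE), with 37.6, 16.0, 30.2 and 20.8 CPM at ZT13 against 38.6, 39.4, 26.4 and 26.6 CPM at ZT1. The spread within ZT13 was wide and the groups overlapped. Per length of merged exons, Atg16l2 made up 43.2 to 71.4% of the summed level of both genes at ZT13 and 56.6 to 65.8% at ZT1. With the longest annotated transcript as the length, the shares were 28 to 56% at ZT13 and 40 to 49.6% at ZT1. Which of the paralogs was the more abundant thus depended on the length used.

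Atg3, the most abundant gene of the reactions, had 287, 307, 348 and 372 CPM at ZT13, against 264, 354, 354 and 296 CPM at ZT1. Libraries of both times were intermixed (log2 fold change 0.05 ± 0.12, SE; adjusted p = 0.946), and the sign turned to -0.02 without ZT13 replicate 4 and to -0.03 without ZT1 replicate 1. Atg10 had the highest log2 fold change of the 39 genes, 0.67 ± 0.31 (SE; adjusted p = 0.556), with 6.70, 4.92, 3.30 and 5.39 CPM at ZT13 against 3.27, 3.20, 2.74 and 3.55 CPM at ZT1. ZT13 replicate 3 lay inside the ZT1 range; without it the log2 fold change was 0.83, with an unadjusted p under 0.05 (adjusted p = 0.428), and without ZT13 replicate 1 it was 0.51 (adjusted p = 0.673). Atg7 had a log2 fold change of -0.16 ± 0.09 (SE; adjusted p = 0.612), and with single libraries left out of -0.22 to -0.13, where the lowest, without ZT1 replicate 1, had an unadjusted p under 0.05 (adjusted p = 0.802). The values were -0.12 ± 0.13 for Atg12, the ubiquitin-like protein of the first reaction, and 0.02 ± 0.12 for Atg5.

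The ATG4 cysteine proteases cut ATG8 precursors to expose a terminal glycine and later release ATG8 from the membrane. None of the 4 genes had an unadjusted p under 0.05, and their log2 fold changes were 0.00 to -0.26. Atg4d had 49.0, 46.9, 32.7 and 36.1 CPM at ZT13, against 52.7, 52.6, 42.7 and 48.7 CPM at ZT1. ZT13 replicates 3 and 4 lay below all ZT1 libraries and the other two lay among them (log2 fold change -0.26 ± 0.16, SE; adjusted p = 0.684). Atg4a had 11.8, 22.4, 19.9 and 21.3 CPM at ZT13, against 26.6, 15.5, 17.9 and 22.4 CPM at ZT1.

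The Atg4a groups overlapped, with the lowest value in ZT13 replicate 1 and the highest in ZT1 replicate 1 (log2 fold change -0.13 ± 0.24, SE; adjusted p = 0.929). The sign turned to 0.04 without ZT13 replicate 1 and to 0.02 without ZT1 replicate 1. Of the 50-base runs of Atg4a, 51.2% are shared with another annotated gene, mainly the pseudogene Atg4a-ps, so that its level is uncertain. The log2 fold change was 0.00 ± 0.14 for Atg4b, the most active protease on ATG8 precursors, and -0.25 ± 0.22 for Atg4c (SE).

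The ATG8 proteins are the ubiquitin-like products of these reactions, and the machinery holds 5 of their genes in the LC3 and GABARAP subfamilies. The coding sequence up to the glycine that ATG4 exposes shows how far the 5 genes differ at the nucleotide level and so whether their reads can be told apart. The last 60 bases of coding sequence that end in the last glycine codon, which is in capitals, are given 5′ to 3′ from GENCODE M21 transcripts of build GRCm38; the codon is followed by 1 codon, or by 5 in Map1lc3b.
Map1lc3a, chromosome 2: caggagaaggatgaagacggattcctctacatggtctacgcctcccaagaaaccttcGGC
Map1lc3b, chromosome 8: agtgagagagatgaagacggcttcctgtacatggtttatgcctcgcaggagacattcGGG
Gabarap, chromosome 11: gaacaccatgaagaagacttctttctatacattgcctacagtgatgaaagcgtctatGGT
Gabarapl1, chromosome 6: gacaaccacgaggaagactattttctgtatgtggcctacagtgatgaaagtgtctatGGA
Gabarapl2, chromosome 8: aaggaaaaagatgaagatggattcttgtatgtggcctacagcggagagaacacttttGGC
Over these bases Gabarap and Gabarapl1 were 80% identical, Map1lc3a and Map1lc3b 76.7%, and Map1lc3b and Gabarapl1, the least alike pair, 41.7%. The longest run shared by any pair of these transcripts was 17 bases, shorter than the reads of 50 bases. Shared runs of that length with other annotated genes, mainly pseudogenes for Map1lc3b and Gabarapl2, made up 23.1% of the exons of Gabarapl1, 12.2% for Gabarapl2, 6.01% for Map1lc3b and 0% for Gabarap and Map1lc3a.

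Each of the 5 ATG8 genes had a positive log2 fold change (median 0.34), and none had an unadjusted p under 0.05 in the main edgeR fit. The sign was the same under all 18 alternative settings for each of the 5. Each setting used the same 8 libraries or part of them, so the settings are not independent of one another. The unadjusted p was under 0.05 in 8 of these settings for Gabarapl2, 6 for Map1lc3a and 4 for Gabarap. It was so in 0 of them for Map1lc3b and for Gabarapl1. Gabarap (ENSMUSG00000018567, chr11:69991143-69994951, plus strand, GRCm38) had 483, 481, 466 and 481 CPM at ZT13, against 285, 387, 538 and 302 CPM at ZT1. The 4 ZT13 libraries lay close together, with a coefficient of variation of 1.71%, while the ZT1 libraries were spread over a coefficient of variation of 30.6%, and ZT1 replicate 3 lay above all others. The means were 478 ± 8.15 CPM at ZT13 and 378 ± 116 CPM at ZT1 (SD, n = 4 each), with a log2 fold change of 0.34 ± 0.18 (SE; adjusted p = 0.613). It was 0.22 without ZT1 replicate 1 (adjusted p = 0.923) and 0.25 without ZT1 replicate 4 (adjusted p = 0.927). Without ZT1 replicate 3 it was 0.55, with an unadjusted p under 0.05 (adjusted p = 0.130).

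Map1lc3a (ENSMUSG00000027602, chr2:155276297-155278073, plus strand, GRCm38), which encodes LC3A, had 56.7, 45.4, 49.6 and 48.4 CPM at ZT13, against 31.6, 40.9, 49.9 and 35.4 CPM at ZT1. ZT1 replicate 3 lay inside the ZT13 range and the other ZT1 libraries lay below it. The log2 fold change was 0.34 ± 0.16 (SE; adjusted p = 0.553), and it spanned 0.25 without ZT1 replicate 1 (adjusted p = 0.863) to 0.47 without ZT1 replicate 3 (adjusted p = 0.211). Gabarapl2 (GATE-16) had 54.5, 52.0, 60.8 and 55.0 CPM at ZT13, against 36.2, 42.6, 57.9 and 39.6 CPM at ZT1. As for Map1lc3a, ZT1 replicate 3 lay inside the ZT13 range (log2 fold change 0.34 ± 0.16, SE; adjusted p = 0.553), and the log2 fold change spanned 0.25 without ZT1 replicate 1 (adjusted p = 0.867) to 0.49 without ZT1 replicate 3 (adjusted p = 0.143).

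Map1lc3b had 415, 459, 420 and 438 CPM at ZT13, against 316, 414, 425 and 389 CPM at ZT1 (log2 fold change 0.17 ± 0.10, SE; adjusted p = 0.691). Gabarapl1 had 11.7, 13.7, 8.32 and 14.4 CPM at ZT13, against 9.58, 9.39, 11.1 and 12.1 CPM at ZT1 (log2 fold change 0.19 ± 0.22, SE; adjusted p = 0.858). The groups overlapped for both genes. With single libraries left out the log2 fold change spanned 0.08 (without ZT1 replicate 1) to 0.21 for Map1lc3b and 0.09 (without ZT13 replicate 4) to 0.33 (without ZT13 replicate 3) for Gabarapl1. Summed over the 5 genes, the ATG8 level was 1021, 1052, 1004 and 1037 CPM at ZT13, against 678, 894, 1082 and 778 CPM at ZT1. ZT1 replicate 3 thus held the highest ATG8 sum of the 8 libraries and ZT1 replicate 1 the lowest. The makeup of the family varied little by comparison: Gabarap gave 66.4 to 67.0% of the summed level per length at ZT13 and 61.0 to 69.3% at ZT1.

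**Figure D3:**
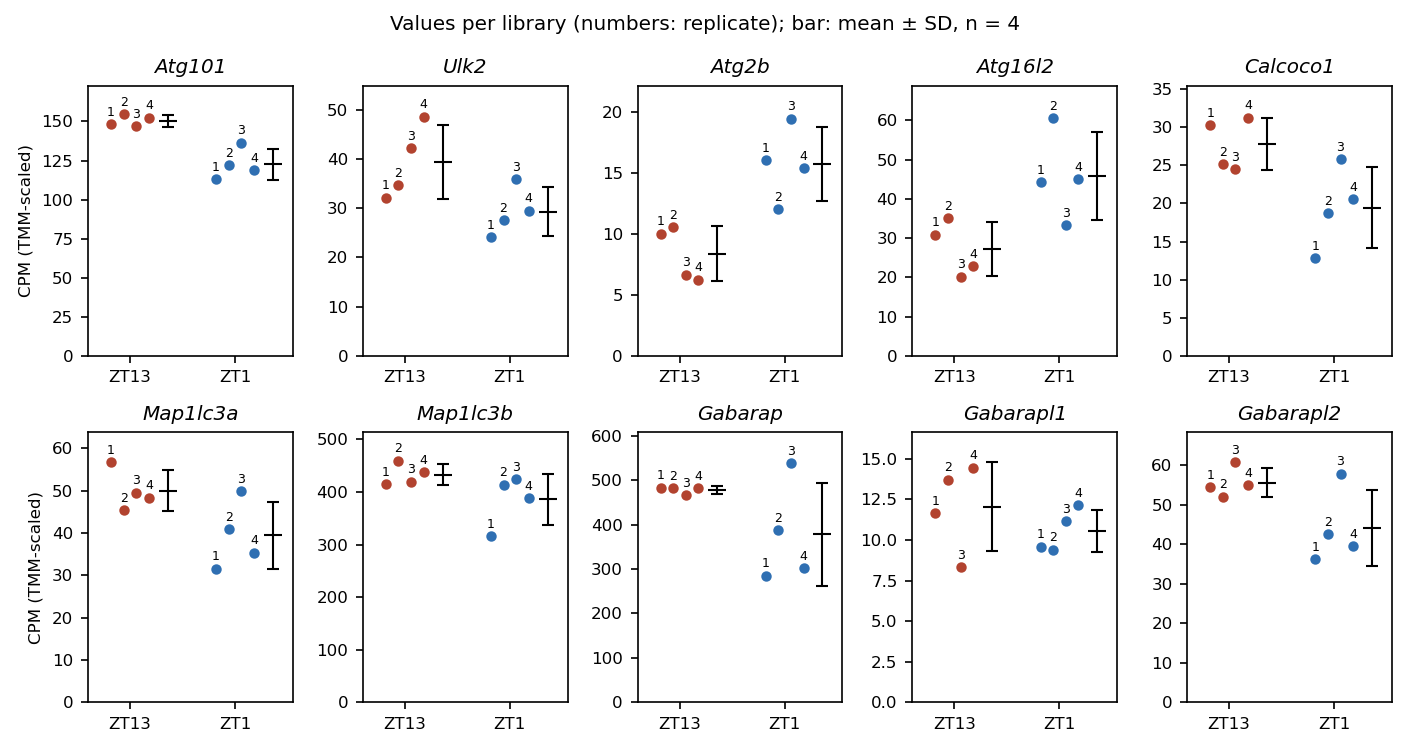
TMM-scaled CPM in each library for the 5 genes with an unadjusted p under 0.05 (top) and the 5 ATG8 genes (bottom), ZT13 left and ZT1 right of each panel; numbers name the replicate, and the bar is the mean with 1 SD (n = 4). ZT13 and ZT1 points do not overlap for Atg101 and Atg2b, and ZT1 replicate 3 sits above the ZT13 points for Gabarap at 538 CPM.

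The cargo receptors bind both cargo and ATG8. Of the 5 genes 3 had positive log2 fold changes, against 47.7% of all genes. An unadjusted p under 0.05 was found for 1 of the 5, Calcoco1, against 9.20% of all genes. Calcoco1 (ENSMUSG00000023055, chr15:102706777-102722178, minus strand, GRCm38), known as a receptor for the endoplasmic reticulum, had 30.2, 25.1, 24.5 and 31.3 CPM at ZT13, against 12.8, 18.7, 25.8 and 20.5 CPM at ZT1. The groups overlapped at ZT1 replicate 3, which lay above ZT13 replicates 2 and 3. The means were 27.8 ± 3.46 CPM at ZT13 and 19.5 ± 5.34 CPM at ZT1 (SD, n = 4 each), with a log2 fold change of 0.51 ± 0.21 (SE; adjusted p = 0.519). Its unadjusted p was no longer under 0.05 without ZT13 replicate 1 or 4 (log2 fold changes 0.47 and 0.45), or without ZT1 replicate 1, 2 or 4 (0.36, 0.49 and 0.54).

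Sqstm1, the most abundant receptor per length, had 398, 373, 402 and 340 CPM at ZT13, against 342, 450, 424 and 419 CPM at ZT1. Of the ZT1 libraries 3 lay above all ZT13 libraries and ZT1 replicate 1 lay near the lowest (log2 fold change -0.11 ± 0.10, SE; adjusted p = 0.807). Nbr1, a partner of p62 at ubiquitinated cargo, had a log2 fold change of 0.16 ± 0.10 and Optn, a receptor for bacteria and mitochondria, 0.08 ± 0.17 (SE). Tax1bp1, another ubiquitin-binding receptor, had -0.14 ± 0.10 (SE), and with single libraries left out -0.22 to -0.09, where the lowest, without ZT13 replicate 3, had an unadjusted p under 0.05 (adjusted p = 0.485).

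Stx17, the SNARE on the closed autophagosome, had 34.1, 34.1, 33.0 and 23.8 CPM at ZT13, against 41.2, 31.1, 26.4 and 33.4 CPM at ZT1. The groups overlapped (log2 fold change -0.08 ± 0.18, SE; adjusted p = 0.942), and the sign turned to 0.03 without ZT13 replicate 4 and to 0.04 without ZT1 replicate 1.

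Beyond the core machinery, 57 related genes were listed: regulators upstream, partners of the lipid kinase complex and of membrane growth, further cargo receptors, and fusion factors. Of these 54 were in the table and 52 were tested; Prkaa2, Calcoco2 and Vamp7 were not analysed here, and the remaining untested genes fell under the filter on low counts. None passed the adjusted threshold with edgeR's quasi-likelihood test and Benjamini-Hochberg adjustment. At an unadjusted p under 0.05 there were 6 (11.5%, against 9.20% of all genes), 3 higher and 3 lower at ZT13, and the median log2 fold change was -0.06.

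Mtor, the kinase that restrains initiation by phosphorylating the ULK complex, had 16.9, 21.2, 17.3 and 16.7 CPM at ZT13, against 11.05, 12.6, 11.8 and 10.2 CPM at ZT1. Every ZT13 library lay above every ZT1 library. The means were 18.0 ± 2.13 CPM at ZT13 and 11.4 ± 1.01 CPM at ZT1 (SD, n = 4 each), with a log2 fold change of 0.66 ± 0.16 (SE; adjusted p = 0.373). DESeq2 called it, with an adjusted p of 0.0288, as the only one of the 52 related genes (1.92%, against 0.936% of all genes). Its unadjusted p was under 0.05 in each of the 18 alternatives run.

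Ncoa4, the receptor for ferritin, had 115 ± 6.62 CPM at ZT13 and 95.1 ± 7.12 CPM at ZT1 (SD, n = 4 each; log2 fold change 0.27 ± 0.09, SE; adjusted p = 0.491). Trp53inp1, which binds ATG8 proteins, had 137 ± 6.97 CPM at ZT13 and 117 ± 11.6 CPM at ZT1 (log2 fold change 0.23 ± 0.10, SE; adjusted p = 0.532). For both genes, as for Mtor, every ZT13 library lay above every ZT1 library (3 of 52 related genes, 5.77%, against 2.66% of all genes). In the other direction the groups did not overlap for 1 related gene, Stx7 (1.92%, against 3.00% of all genes). Lower values at ZT13 were found for the endosomal SNARE gene Stx7 (218 ± 1.08 CPM at ZT13, 254 ± 25.5 CPM at ZT1; adjusted p = 0.519), the tethering subunit gene Vps33a (35.6 ± 6.25 CPM at ZT13, 46.2 ± 4.21 CPM at ZT1; adjusted p = 0.519) and the mitophagy receptor gene Bnip3 (18.8 ± 1.75 CPM at ZT13, 25.8 ± 6.34 CPM at ZT1; adjusted p = 0.529). Leaving out single libraries took the unadjusted p above 0.05 for Trp53inp1 (ZT13 replicates 1, 2 and 3 and ZT1 replicates 1 and 2, log2 fold change 0.16 to 0.24), for Stx7 (each ZT13 replicate and ZT1 replicates 2 and 3, -0.22 to -0.15), for Vps33a (ZT13 replicate 1 and ZT1 replicates 1, 3 and 4, -0.39 to -0.26) and for Bnip3 (ZT13 replicates 1, 3 and 4 and ZT1 replicates 2 and 3, -0.48 to -0.35). For Ncoa4 it was under 0.05 with each library left out (log2 fold change 0.23 to 0.32), but not with library totals or with the replicate block by library names.

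The fold changes of the 39 genes went along with exon length. Genes with a positive log2 fold change had a median merged exon length of 3753 bases and those with a negative one 7016 bases, and the Spearman correlation of length with log2 fold change was -0.54 over the 39 genes. Over the 12313 tested genes with an annotated length the medians were 3335 and 4724 bases and the correlation -0.24, all within the same 8 libraries. Among the low-p genes Atg101 is short at 1597 bases and Atg2b long at 13456 bases. Calcoco1 (5731 bases), Ulk2 (5977 bases) and Atg16l2 (8469 bases) lie between them. Calcoco1 and Ulk2, with higher values at ZT13, are thus longer than the median of 3753 bases of the positive genes. The part of length in the fold changes was not tested.

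**Figure D4:**
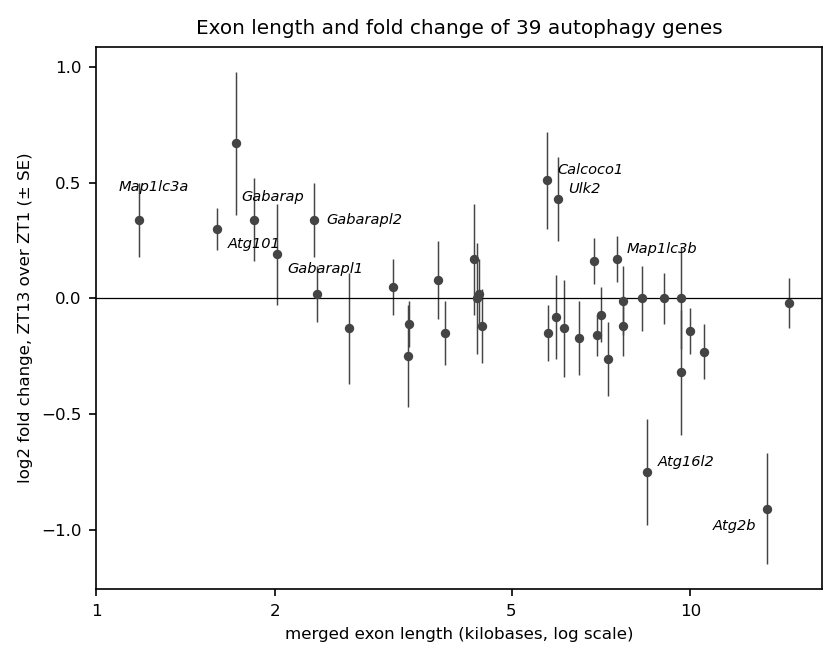
Log2 fold change of ZT13 over ZT1 (bars: SE) against merged exon length in kilobases (log scale) for the 39 autophagy genes; the 5 genes with an unadjusted p under 0.05 and the 5 ATG8 genes are named. Short genes lie mostly above 0 and long genes mostly at or below it, with a Spearman correlation of -0.54.

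Since the comparison is one of time of day, the promoters were searched for the E-box CACGTG, the palindrome bound by CLOCK and BMAL1, for the longer TCACGTGA, the core of the element bound by TFEB, which contains the E-box, and for the D-box TTANGTAA. Promoters from 250 bases before to 50 bases after the start, from RefSeq (GRCm38.p6), were found for 33 of the 39 genes and both strands were read. The E-box was present in 4 of 33 (12.1%: Atg14, Atg3, Atg5 and Atg7), against 8.09% of 27025 genes. TCACGTGA was present in 1 of 33 (3.03%: Atg3), against 1.12% of genes, and the D-box in 0 of 33, against 2.72%. None of the 5 genes with an unadjusted p under 0.05 held any of the 3. The Atg3 promoter is shown because it alone held a pair of E-boxes, in capitals, on the plus strand at chr16:45158688-45158787.
Atg3: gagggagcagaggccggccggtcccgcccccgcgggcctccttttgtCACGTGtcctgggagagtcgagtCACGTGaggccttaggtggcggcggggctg
A match describes letters only, and Atg3 had one of the smaller differences between the times (log2 fold change 0.05 ± 0.12, SE).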

How the data were processed

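RNA was amplified with SMART-Seq v4 and Nextera XT libraries, which carry no strand information, were read as single 50-base reads, per the labels' protocols. The authors deposited raw counts per gene; the tools were STAR 2.7.10b, featureCounts from Subread 2.0.3, FastQC and DESeq2 1.46.0 with build GRCm38, per the submitters' processing notes. The sources used here do not give the counting options. Ensembl identifiers were named from GENCODE M21 (22231 of 23369 matched without version; the others held 0.121% of counts).

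Genes were filtered with filterByExpr (minimum count 10, minimum total 15) and tested with edgeR 4.0.16 in R 4.3.3: TMM factors, robust quasi-likelihood F-test of ZT13 over ZT1, Benjamini-Hochberg adjustment over 12610 genes. CPM values are scaled by TMM. The biological coefficient of variation was 0.498. Alternatives were other scalings and filters, DESeq2 1.42.0, limma 3.58.1 (voom), each library left out, and a replicate block. All genes of the list are named; given in every library are those at an unadjusted p under 0.05 or without overlap, the most abundant per length and the smallest p of each role, and further genes chosen after their values were seen (the other ATG8 genes, Atg10 and Atg16l1). Related genes are named at an unadjusted p under 0.05. The genes and lists were chosen with earlier results of these data known. Some genes of the marker and related lists are not reported here.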

Additional observations from a re-analysis of the deposited data

Results flagged for a closer look

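In 4 of the 78 groups of 4 libraries examined (39 genes at 2 times), 1 library stood apart from the other 3, its gap to the nearest being larger, relative to the group's range, than Dixon's 95% critical value. Chance alone flags about 1 in 20 such groups. Gabarap in ZT13 replicate 3 was at 465.6 CPM, below the others at 481.3 to 482.9 CPM. Stx17 in ZT13 replicate 4 was at 23.83 CPM, below the others at 32.96 to 34.08 CPM. Wipi1 in ZT13 replicate 3 was at 54.85 CPM, above the others at 40.6 to 42.71 CPM. Nbr1 in ZT1 replicate 1 was at 85.76 CPM, above the others at 77.37 to 78.51 CPM.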

How the results depend on the processing

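The count of autophagy genes at an unadjusted p under 0.05, 5 as reported, was 8 with DESeq2, 8 with limma-voom, 8 with voom quality weights and 3 to 8 with single libraries left out. The count over all 12610 genes also moved, from 1160 as reported to 1378 with DESeq2, 1534 with limma-voom and 1531 with voom quality weights. With single libraries left out it was 781 to 1502, of 13006 to 13232 genes tested. The median log2 fold change of the autophagy genes, -0.01 as reported, was -0.08 with library totals and -0.06 to 0.01 with single libraries left out. Of all genes, 118 passed an adjusted p of 0.05 with DESeq2, against 0 with edgeR. For the related genes the median of -0.06 was -0.13 with library totals, -0.11 with limma-voom and -0.11 to -0.02 with single libraries left out. Among all genes at an unadjusted p under 0.05, the share with higher values at ZT13 was 47.2% as reported, 34.0% with library totals and 32.1% with no filter on low counts (median of all genes -0.08 in both), 55.3% with upper-quartile factors, 56.0% with a filter of 5 CPM in 4 libraries, and 33.8 to 53.5% with single libraries left out. With single libraries left out the log2 fold change spanned -0.03 to 0.11 for Atg3, -0.24 to 0.04 for Atg4a and -0.18 to 0.04 for Stx17. The cause was not tested.

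Samples share only replicate numbers: deviations of same-numbered samples correlated at -0.04 to 0.02 by sample title. With a replicate block by titles, 0 of all genes passed an adjusted p of 0.05. At an unadjusted p under 0.05 there were 5 autophagy genes and 2 related genes (median -0.10), beside 972 of the 12610 genes tested. With a replicate block by library names, over 3 pairs, 0 of all genes passed the adjusted threshold. At the unadjusted one there were 6 autophagy genes and 4 related genes, beside 1193 of the 12757 genes tested. The medians were -0.06 for the autophagy genes and -0.13 for the related genes. The block by titles lacked Calcoco1 and added Gabarapl2; the block by library names lacked Atg2b and Calcoco1 and added Gabarap, Gabarapl2 and Map1lc3a.

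Every autophagy gene had 149 counts or more in every library.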
